A study of Mus musculus with 12 samples.

Results

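The interleukin-1 (IL-1) family genes described here are 10 of the 55092 features measured by RNA-Seq in mouse abdominal aortas. They were chosen by gene symbol, with earlier results of these data known. They comprise 4 genes for agonist ligands (Il1a, Il1b, Il18 and Il33), the receptor antagonist Il1rn, the decoy receptor Il1r2, the signalling receptors Il1r1 and Il1rl1, and the accessory receptor chains Il18rap and Il1rap. All 10 had a row, and 9 passed a filter of at least 1 FPKM (fragments per kilobase of exon, scaled to library depth) in at least 3 of the 12 libraries, which kept 14676 features in all. Il1a did not pass it and is given by its values alone. The mice were males in 4 groups of 3. CFS and CFA were CCN2fl/fl mice, which carry floxed alleles of CCN2 and no Cre, infused by pump with saline (CFS) or with angiotensin II (Ang II) at 500 ng/kg/min (CFA). CSS and CSA were CCN2SMC∆ mice, in which a tamoxifen-inducible Cre driven by the smooth muscle promoter Myh11 deletes CCN2, infused with saline (CSS) or the same dose of Ang II (CSA). Every mouse, controls included, had received 5 doses of tamoxifen at 8 weeks of age with a washout of 2 weeks, and the aortas were taken on day 7 of infusion. Each library came from 1 mouse, and the tissue was the whole wall, so that fewer cells of a type and less RNA per cell cannot be told apart.

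IL-1 alpha and IL-1 beta bind the receptor IL-1R1, which then recruits the accessory chain encoded by Il1rap and signals through MyD88 to NF-kB. The antagonist encoded by Il1rn occupies the same receptor without recruiting that chain, and IL-1R2 binds the agonists but has no signalling domain. IL-18 and IL-33 use the same arrangement with their own receptors, and the secreted protein encoded by Il18bp holds IL-18 away from its receptor. IL-1 beta and IL-18 are made as precursors that are cut by caspase 1 in inflammasomes. In arteries, myeloid cells are a known source of IL-1 beta, and stromal and endothelial nuclei are known to store IL-33.

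The targeted gene, Ccn2, was measured at 710, 1108 and 480 FPKM in the CFS mice (68, 69 and 70), at 436, 640 and 587 in the CSS mice (54, 55 and 56), at 1013, 1105 and 564 in the CFA mice (71, 72 and 74) and at 255, 331 and 399 in the CSA mice (01, 02 and 03). Against CFA, its log2 fold change in CSA was -1.41 (SE 0.34, adjusted p = 0.00622, limma), under the fold limit of 1.5 used here for a call, and in CSS against CFS it was -0.40 (SE 0.34, adjusted p = 1), with groups that overlapped. The libraries held 14555508 to 23102751 fragments. CSA 03 stood apart, with the fewest fragments (14555508), 18883 features above 0 against 21192 to 24761 in the other libraries, and 272 genes at a single fragment against 1128 to 2435. Smooth muscle markers, which define the labelled tissue, summed to 7676 to 10216 FPKM in the saline groups, 5466 to 8323 in CFA and 793 to 938 in CSA.

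The 250 bases upstream of the first RefSeq transcription start listed are shown for Il1b, Il1rn, Il1r2 and Il33, because these genes for an agonist, an antagonist, a decoy and an alarmin moved together in the expression data. They are read in the direction of transcription on GRCm38.p6, with chr2:129371140-129371389 (minus strand) for Il1b, chr2:24336610-24336859 (plus strand) for Il1rn, chr1:40085843-40086092 (plus strand) for Il1r2 and chr19:29924863-29925112 (plus strand) for Il33. Capitals mark matches, on either strand, to the motifs kB (GGGANNNNCC), AP-1 (TGANTCA), C/EBP (TTNNGNAA), PU.1 (GAGGAAG), GAS (TTCNNNGAA) and the TATA box (TATAAA).
Il1b: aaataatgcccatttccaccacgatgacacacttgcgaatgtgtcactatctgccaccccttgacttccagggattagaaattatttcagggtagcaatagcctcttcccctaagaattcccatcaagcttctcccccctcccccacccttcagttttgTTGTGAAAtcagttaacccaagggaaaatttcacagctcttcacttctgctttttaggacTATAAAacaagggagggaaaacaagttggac
Il1rn: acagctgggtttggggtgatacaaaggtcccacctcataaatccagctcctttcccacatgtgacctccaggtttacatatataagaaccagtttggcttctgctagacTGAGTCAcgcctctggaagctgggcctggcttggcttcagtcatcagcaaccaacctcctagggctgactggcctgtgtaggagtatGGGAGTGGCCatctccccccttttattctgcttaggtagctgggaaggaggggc
Il1r2: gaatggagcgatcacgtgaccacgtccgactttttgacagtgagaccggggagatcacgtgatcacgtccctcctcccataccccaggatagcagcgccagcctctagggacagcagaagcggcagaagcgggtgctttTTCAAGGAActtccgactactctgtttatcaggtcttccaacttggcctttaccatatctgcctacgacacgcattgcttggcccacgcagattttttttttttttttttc
Il33: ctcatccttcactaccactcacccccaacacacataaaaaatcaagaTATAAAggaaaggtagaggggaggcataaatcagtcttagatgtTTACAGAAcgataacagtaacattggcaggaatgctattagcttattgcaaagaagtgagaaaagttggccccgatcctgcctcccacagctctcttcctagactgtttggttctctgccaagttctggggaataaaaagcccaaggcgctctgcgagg

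In Il1b the capitals mark a C/EBP match at -91 to -84 and a TATA box at -31 to -26, counted from the transcription start. In Il1rn they mark an AP-1 match at -141 to -135 and a kB match at -54 to -45. Il1r2 held a GAS match alone, at -111 to -103, and Il33 held a TATA box match at -203 to -198 and a C/EBP match at -159 to -152. None of the marked matches in these 4 windows overlap each other. RefSeq gives further starts for Il1rn (3 windows) and Il33 (2 windows), whose sequences are not shown. The second window of Il33 held a TATA box match at -29 to -24 and C/EBP matches at -85 to -78 and -58 to -51, and the other windows of Il1rn held C/EBP matches. Over the first window of each of the 10 genes, a C/EBP match was found in 6, a TATA box match in 4, and kB, AP-1 and PU.1 matches in 2 each, against 36.8%, 12.4%, 17.7%, 6.75% and 10.6% of 32807 upstream windows of the same length, and a GAS match was found in 1, against 7.02%. The other TATA box matches were in Il1a (-32 to -27) and Il18 (-175 to -170, opposite strand). Those of Il18 and Il33 thus lay far from the start. A match is a run of letters in this window and no measure of binding.

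The comparison of CSA with CFA sets the genotypes against each other under Ang II. The study reported infrarenal aneurysms in most CCN2SMC∆ mice given Ang II, and mild thoracic or suprarenal ones in a few controls. Which sequenced aortas held an aneurysm is not given in the sources used here. Deletion of CCN2 and presence of an aneurysm therefore cannot be told apart in this comparison. Il1b, Il18, Il33, Il1rn, Il1r2, Il1r1 and Il18rap rose, and none of the 9 tested genes fell. A gene is called here where its adjusted p is below 0.05 and its log2 fold change exceeds 1.5 in size, in a limma fit of log2(FPKM + 0.1) over all 12 libraries with Benjamini-Hochberg adjustment over 14676 genes. Among all tested genes 8.95% were called higher and 8.27% lower. Il1rn, Il1r2, Il1rl1 and Il18rap reached the filter only through the CSA libraries, the group in which they were high, so that the 7 calls are not a share of an even selection. Of the 5 genes that passed on the 9 libraries outside CSA, 4 were called higher (Il1b, Il18, Il33 and Il1r1), beside 4.53% of the 13470 features that passed in the same way when refitted on these alone (4.54% of them in the fit over all tested genes). All 10 genes, Il1a included, were higher in each CSA mouse than in each CFA mouse, as were 23.4% of tested genes. Without CSA 03 the count was 6, the gene lost being Il1r1, and without CFA 72 it was 7.

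**Figure D1:**
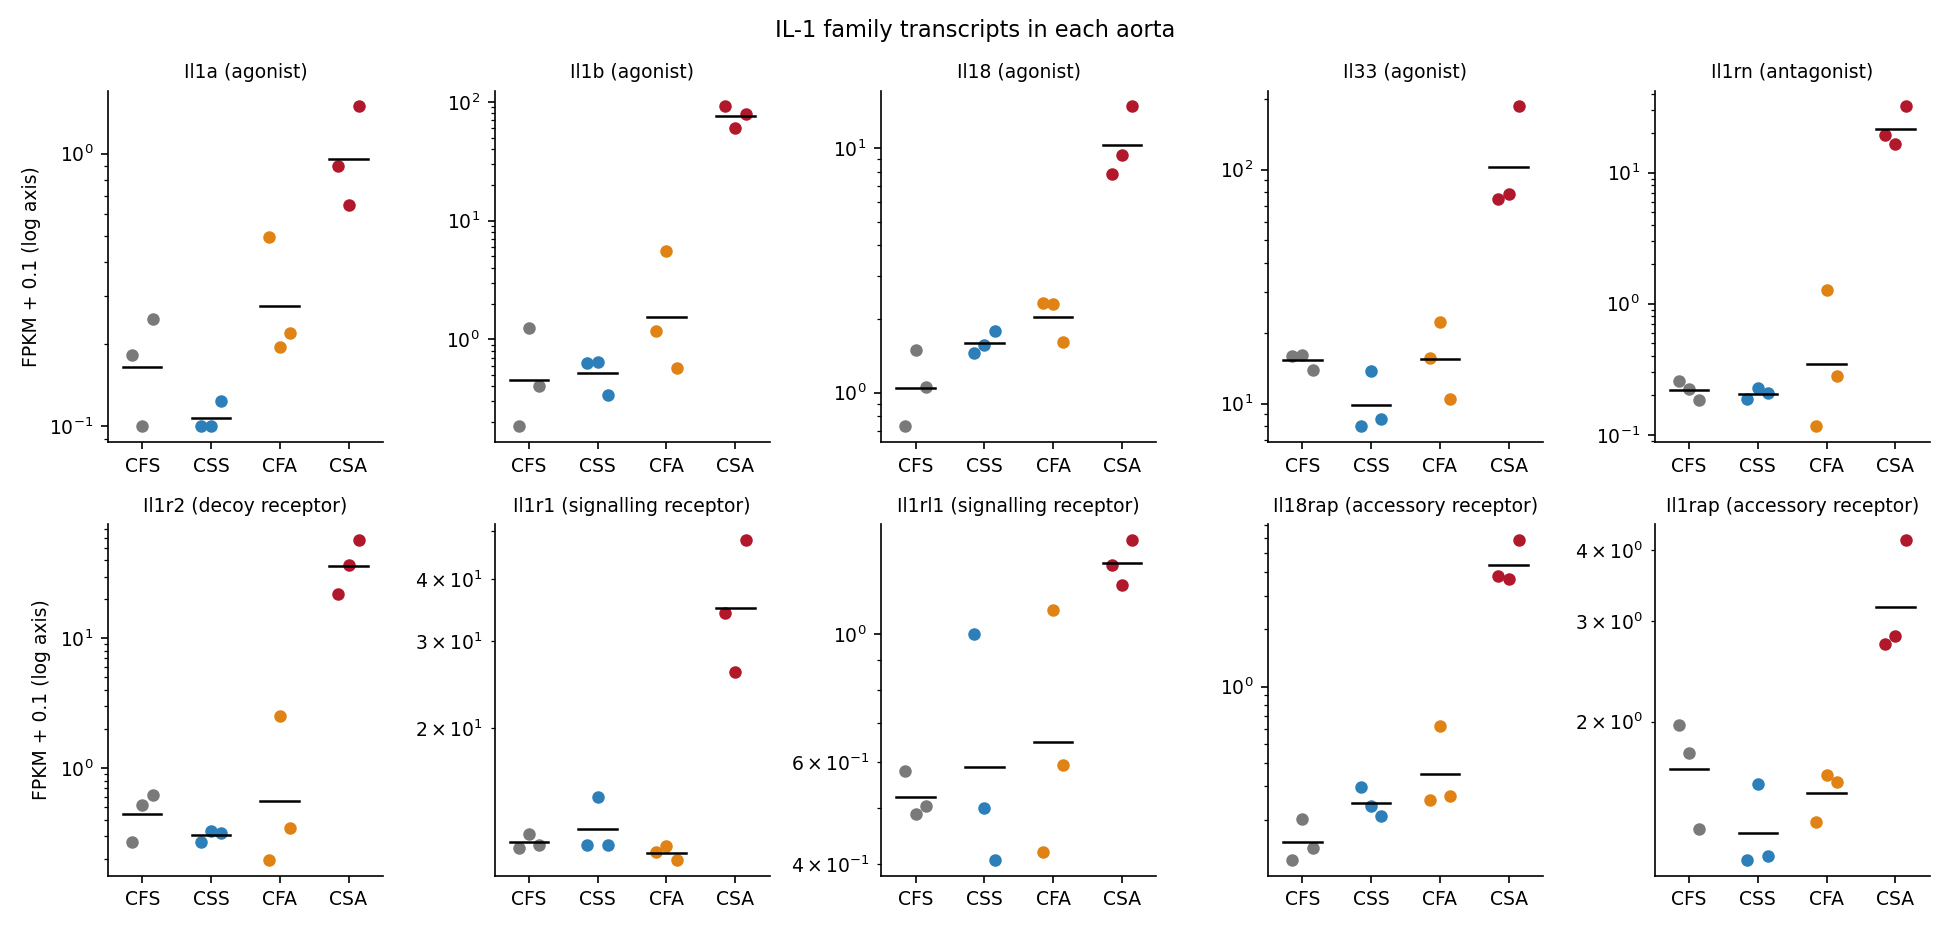
FPKM + 0.1 of each of the 10 genes (vertical log axes, 1 panel per gene, each with its own range) in the 3 mice of each group, with points for mice and bars for the geometric mean. In each panel the 3 CSA points lie above all 9 others, and in the CFA group mouse 72 has the highest Il1b (5.44 FPKM), Il1rn (1.17 FPKM) and Il1r2 (2.42 FPKM).

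Among the agonists, Il1b (ENSMUSG00000027398) lies on chromosome 2, 129364570 to 129371139 on the minus strand, and encodes IL-1 beta. Its FPKM was 0.0851, 1.15 and 0.304 in CFS, 0.536, 0.538 and 0.241 in CSS, 1.08, 5.44 and 0.470 in CFA, and 91.3, 59.6 and 78.7 in CSA. The 3 CSA mice stood clear of the other 9, which overlapped one another, and the lowest CSA value was 11.0 times the highest CFA value. Mean Il1b in CSA was 76.5 ± 16.0 beside 2.33 ± 2.71 for CFA (SD, n = 3 each). The log2 fold change was 5.60 (SE 0.80, adjusted p = 0.00025, limma), which ranked 33 of 14676 from the highest. Without CFA 72, the CFA mouse with the highest Il1b, it was 6.52. The values rest on 3 to 41 fragments per library in CFS and 2299 to 3537 in CSA.

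Il1a (ENSMUSG00000027399), the gene for IL-1 alpha, lies beside it at 129299610 to 129309972 on the same strand, with its lower coordinate 65 kb before that of Il1b. It was measured at 0.0822, 0 and 0.147 FPKM in CFS, 0, 0 and 0.0233 in CSS, 0.395, 0.0955 and 0.119 in CFA, and 0.798, 0.549 and 1.39 in CSA. These values rest on at most 17 fragments outside CSA and on 32, 23 and 42 fragments in CSA, and the zeros allow up to 3 fragments, about 0.0812 to 0.0820 FPKM. The CSA mice were the highest 3 of the 12 (two-sided exact permutation test against CFA, p = 0.1, the smallest that 3 against 3 can give). With no filter on low values Il1a was called, at a log2 fold change of 1.78 (adjusted p = 0.0239, limma). It shares 11.25% of its exonic bases with the gene Gm14023 on the opposite strand, and whether the counting used strand is not given in the sources used here.

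Il18 (ENSMUSG00000039217, chromosome 9, 50554827 to 50581840, plus strand), the gene for IL-18, was at 0.630, 1.40 and 0.956 FPKM in CFS, 1.36, 1.47 and 1.69 in CSS, 2.23, 2.19 and 1.51 in CFA, and 7.74, 9.28 and 14.7 in CSA. Its mean in CSA was 10.6 ± 3.65 against 1.98 ± 0.405 in CFA (SD, n = 3 each). The log2 fold change was 2.33 (SE 0.30, adjusted p = 0.000121, limma). The order of group means was CFS, CSS, CFA and CSA, and CFS differed from neither CSS nor CFA by a margin that passed the test. CSS was not compared with CFA.

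Il33 (ENSMUSG00000024810, chromosome 19, 29925114 to 29960718, plus strand) encodes IL-33, a nuclear cytokine released by damaged cells. It was the most abundant of the 10 per length in CFS, at 15.9, 16.1 and 13.8 FPKM. The values were 7.91, 13.7 and 8.50 in CSS, 15.6, 22.2 and 10.4 in CFA, and 75.0, 78.3 and 186 in CSA. The CFA and CFS mice overlapped, CSS 55 lay just below the lowest CFS mouse and the other CSS mice further below, and CSA 03 was more than 2 times either of its replicates. Against CFA, the log2 fold change in CSA was 2.74 (SE 0.37, adjusted p = 0.000168, limma), and without CSA 03 it was 2.31 (adjusted p = 0.000173).

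On the inhibitory side, Il1rn (ENSMUSG00000026981, chromosome 2, 24336853 to 24351494, plus strand) encodes the IL-1 receptor antagonist. It was near the detection limit outside CSA, at 0.156, 0.126 and 0.0838 FPKM in CFS, 0.0875, 0.127 and 0.108 in CSS, and 0.0166, 1.17 and 0.179 in CFA, against 19.2, 16.3 and 31.8 in CSA. CFA 72 was the only mouse outside CSA above 0.2 FPKM. Mean Il1rn was 22.4 ± 8.21 for CSA and 0.457 ± 0.627 for CFA (SD, n = 3 each). The log2 fold change was 5.97 (SE 0.69, adjusted p = 5.9e-05, limma), ranked 21. Without CFA 72 it was 6.91. Il1rn passed the filter only through the CSA libraries, in which it was high, so its fit and rank do not rest on an even selection.

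Il1r2 (ENSMUSG00000026073), the decoy receptor gene, spans 40074079 to 40125231 on the plus strand of chromosome 1. Its FPKM was 0.170, 0.420 and 0.517 in CFS, 0.169, 0.226 and 0.217 in CSS, 0.0962, 2.42 and 0.247 in CFA, and 21.99, 36.7 and 57.3 in CSA. The lowest CSA mouse was 9.09 times the highest CFA mouse. With a log2 fold change of 6.02 (SE 0.78, adjusted p = 0.000125, limma), it ranked 18 of 14676, the highest of the 9 tested IL-1 family genes named above. Without CFA 72 the value was 7.11. Il1r2 passed the filter only through the CSA libraries, in which it was high, so its fit and rank do not rest on an even selection. The SEs of Il1b, Il1rn and Il1r2 (0.80, 0.69 and 0.78) exceed the differences among their fold changes, so their order is not resolved.

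The signalling receptor gene Il1r1 (ENSMUSG00000026072, chromosome 1, 40225080 to 40317257, plus strand) varied little outside CSA. It was at 11.4, 12.1 and 11.5 FPKM in CFS, 11.5, 14.5 and 11.5 in CSS, 11.2, 11.5 and 10.8 in CFA, and 34.1, 25.9 and 47.9 in CSA. Against CFA, the log2 fold change in CSA was 1.64 (SE 0.19, adjusted p = 6.18e-05, limma), just over the fold limit. Without CSA 03 it was 1.41 (adjusted p = 2.08e-05), under that limit, and the call was lost.

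Il1rl1 (ENSMUSG00000026069, chromosome 1, 40429570 to 40465415, plus strand), the receptor gene for IL-33, was low throughout, at 0.479, 0.388 and 0.404 FPKM in CFS, 0.898, 0.399 and 0.307 in CSS, 0.320, 0.998 and 0.493 in CFA, and 1.21, 1.11 and 1.35 in CSA. The CSA mice were the highest, by a margin of 1.12 times over the highest CFA mouse, and the log2 fold change of 1.03 (SE 0.43, adjusted p = 0.0791, limma) did not pass the test. Its 95% interval reaches 0.95 to either side. Il1rl1 passed the filter only through the CSA libraries.

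Of the accessory chains, Il18rap (ENSMUSG00000026068, chromosome 1, 40515362 to 40551705, plus strand), which completes the IL-18 receptor, was at 0.0240, 0.103 and 0.0429 FPKM in CFS, 0.199, 0.136 and 0.109 in CSS, 0.156, 0.523 and 0.168 in CFA, and 3.72, 3.57 and 5.77 in CSA. Its log2 fold change was 3.64 (SE 0.46, adjusted p = 1e-04, limma), and the CSA mice were again clear of the rest. Il18rap passed the filter only through these CSA libraries, so its fit does not rest on an even selection. Il1rap (ENSMUSG00000022514, chromosome 16, 26581704 to 26730117, plus strand), shared by the IL-1 and IL-33 receptors, was at 1.87, 1.66 and 1.199 in CFS, 1.05, 1.46 and 1.06 in CSS, 1.23, 1.51 and 1.47 in CFA, and 2.63, 2.73 and 4.06 in CSA. It passed the adjusted p (0.00366, limma) at a log2 fold change of 1.09 (SE 0.24), under the fold limit.

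The genotypes under saline (CSS against CFS), between which Ccn2 differed by -0.40 as given above, gave 0 calls among the 9 genes in limma and in limma-voom on recovered fragments, and 0 at an unadjusted p under 0.05. Over all tested genes 0.0136% were called in either direction and 6.3% had an unadjusted p under 0.05. The log2 fold changes ran from -0.64 (Il33, SE 0.37, adjusted p = 0.915) to 0.68 (Il18rap, SE 0.46, adjusted p = 0.968). The 95% intervals of these differences reach from 0.42 (Il1r1) to 1.78 (Il1b) on either side, so that a change of the latter size in Il1b could not be told from none at n = 3. Il33 was the single gene whose CSS mice all lay below the CFS mice, as did 9.31% of tested genes. Il18rap was the single gene whose CSS mice all lay above them, as did 11.1%.

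Ang II in CCN2fl/fl mice (CFA against CFS) also gave 0 calls in limma and in limma-voom, beside 0.0273% of all tested genes called. At an unadjusted p under 0.05 there were 2 genes, Il18 (log2 fold change 0.96, SE 0.30, adjusted p = 0.291) and Il18rap (1.19, SE 0.46, adjusted p = 0.438), against 9.42% of tested genes. These were also the 2 genes whose CFA mice all lay above the CFS mice, as did 9.44%. With all mice the largest difference was that of Il1b, 1.77 (SE 0.80, adjusted p = 0.532), of which CFA 72 held the highest value. Without CFA 72 the difference of Il1b was 0.86. Without CFA 72 the differences of Il1rn, Il1r2, Il33 and Il1rl1 changed sign, to -0.29, -0.76, -0.25 and -0.07.

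In the CCN2SMC∆ mice (CSA against CSS), a comparison that shares its CSA libraries with the first, 6 of 9 genes were called higher and 0 lower, beside 10.9% and 9.36% of tested genes, and 3 of the 5 that passed the filter outside CSA, beside 5.82%. All 10 genes were higher in each CSA mouse than in each CSS mouse, as were 26.3% of tested genes. The log2 fold changes were 7.19 for Il1b (SE 0.80), 6.89 for Il1r2 (SE 0.78), 6.71 for Il1rn (SE 0.69), 4.15 for Il18rap (SE 0.46), 3.39 for Il33 (SE 0.37) and 2.68 for Il18 (SE 0.30). Il1r1 (1.48), Il1rap (1.32) and Il1rl1 (1.17) passed the adjusted p (9.26e-05, 0.000897 and 0.0445, limma) and not the fold limit.

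The interaction term tests whether the effect of genotype was larger with Ang II than with saline. It called 7 genes higher and 0 lower, beside 7.89% and 7.31% of tested genes, and 4 of the 5 that passed the filter outside CSA, beside 4.39%. On the log2 scale these differences were 6.56 for Il1r2 (SE 1.10, adjusted p = 0.00152), 6.05 for Il1rn (SE 0.98, adjusted p = 0.00122), 5.42 for Il1b (SE 1.14, adjusted p = 0.00529), 3.38 for Il33 (SE 0.52, adjusted p = 0.000958) and 2.96 for Il18rap (SE 0.65, adjusted p = 0.00642), all from limma. Those of Il18 (1.72, SE 0.42, adjusted p = 0.0121) and Il1r1 (1.55, SE 0.27, adjusted p = 0.00188) lay close to the fold limit, and without CSA 03 they were 1.46 and 1.32 and the count was 5. Il1rap (1.46, adjusted p = 0.00837) stayed under the fold limit, and Il1rl1 (0.86, adjusted p = 0.34) did not pass.

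**Figure D2:**
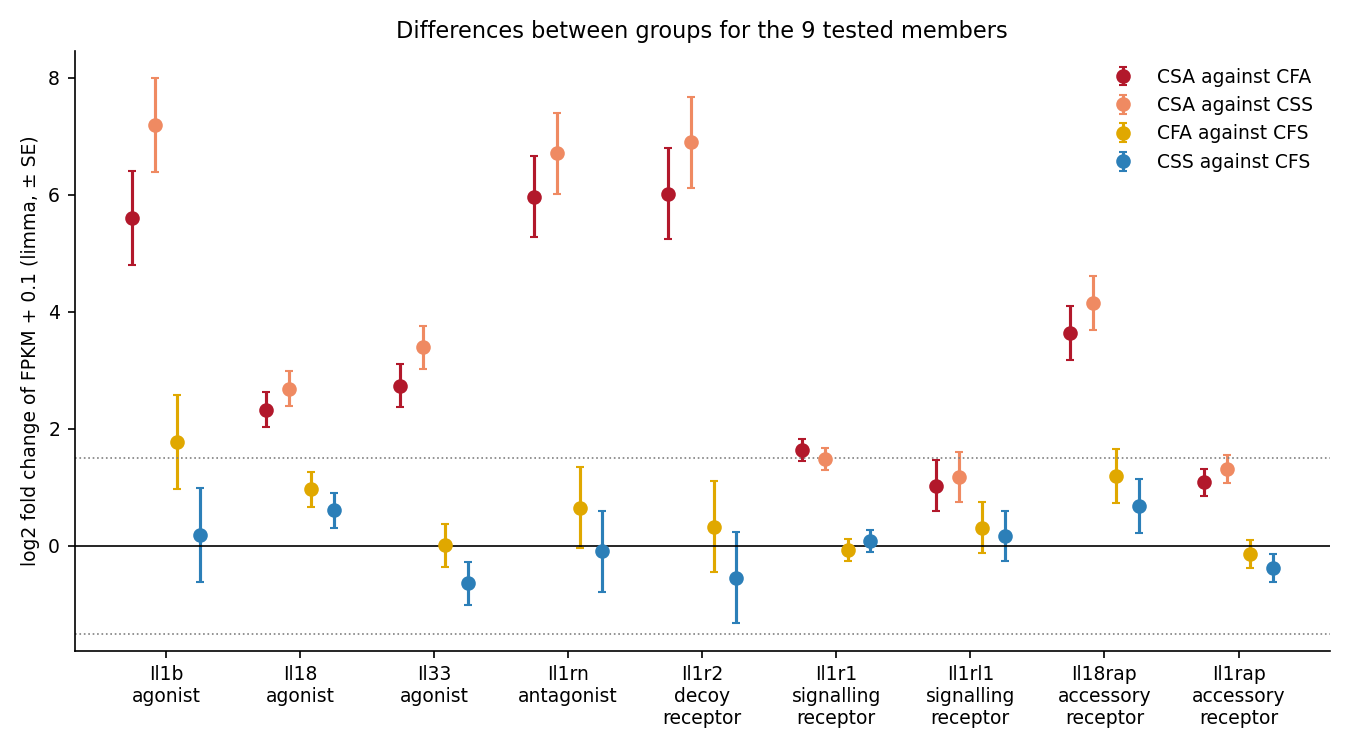
Log2 fold changes of FPKM + 0.1 (vertical axis) with their standard errors for the 9 tested genes in the 4 pairwise comparisons, with dotted lines at the fold limit of 1.5. Those of CSA against CFA and CSA against CSS are above 0 for every gene, while those of the other comparisons lie between -0.64 and 1.77.

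Agonists were then set against antagonist and decoy as ratios of FPKM within a mouse, described without a test. The ratio of Il1b to Il1rn was 0.544, 9.15 and 3.63 in CFS, 6.13, 4.24 and 2.23 in CSS, 65.3, 4.63 and 2.63 in CFA, and 4.75, 3.65 and 2.48 in CSA. The groups overlapped, with the widest spread among mice in CFA and CFS. The value of 65.3, in CFA 71, rests on 2 fragments of Il1rn and that of 0.544, in CFS 68, on 3 fragments of Il1b. Il1a was below Il1rn in each CSA mouse, at a ratio of 0.0415, 0.0337 and 0.0437. It was also below Il1rn in CFS 68 (0.526), CSS 56 (0.216), CFA 72 (0.0813) and CFA 74 (0.668), and at 0 in CFS 69, CSS 54 and CSS 55. In CFS 70 (1.75) and CFA 71 (23.8) it was above Il1rn.

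The decoy and the signalling receptor both rose in CSA against CFA, with log2 fold changes of 6.02 for Il1r2 and 1.64 for Il1r1. The ratio of Il1r2 to Il1r1 was 0.0149, 0.0346 and 0.0448 in CFS, 0.0147, 0.0157 and 0.0188 in CSS, 0.00862, 0.211 and 0.0230 in CFA, and 0.646, 1.42 and 1.197 in CSA. In 2 of the 3 CSA mice the decoy transcript thus exceeded that of the receptor per length, and in none of the other 9. Il18 and Il18bp, the gene for its binding protein, had a median ratio of 0.466 in CFS, 0.775 in CSS, 1.37 in CFA and 1.19 in CSA, and the CFA and CSA mice overlapped. The ratio of Il33 to its receptor gene Il1rl1 was 61.8, 70.2 and 138 in CSA against 21.1 to 48.9 in CFA, 33.2 to 41.5 in CFS and 8.81 to 34.4 in CSS, without overlap. Il1rap to Il1r1 had medians of 0.137, 0.0924, 0.132 and 0.0848 in CFS, CSS, CFA and CSA.

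**Figure D3:**
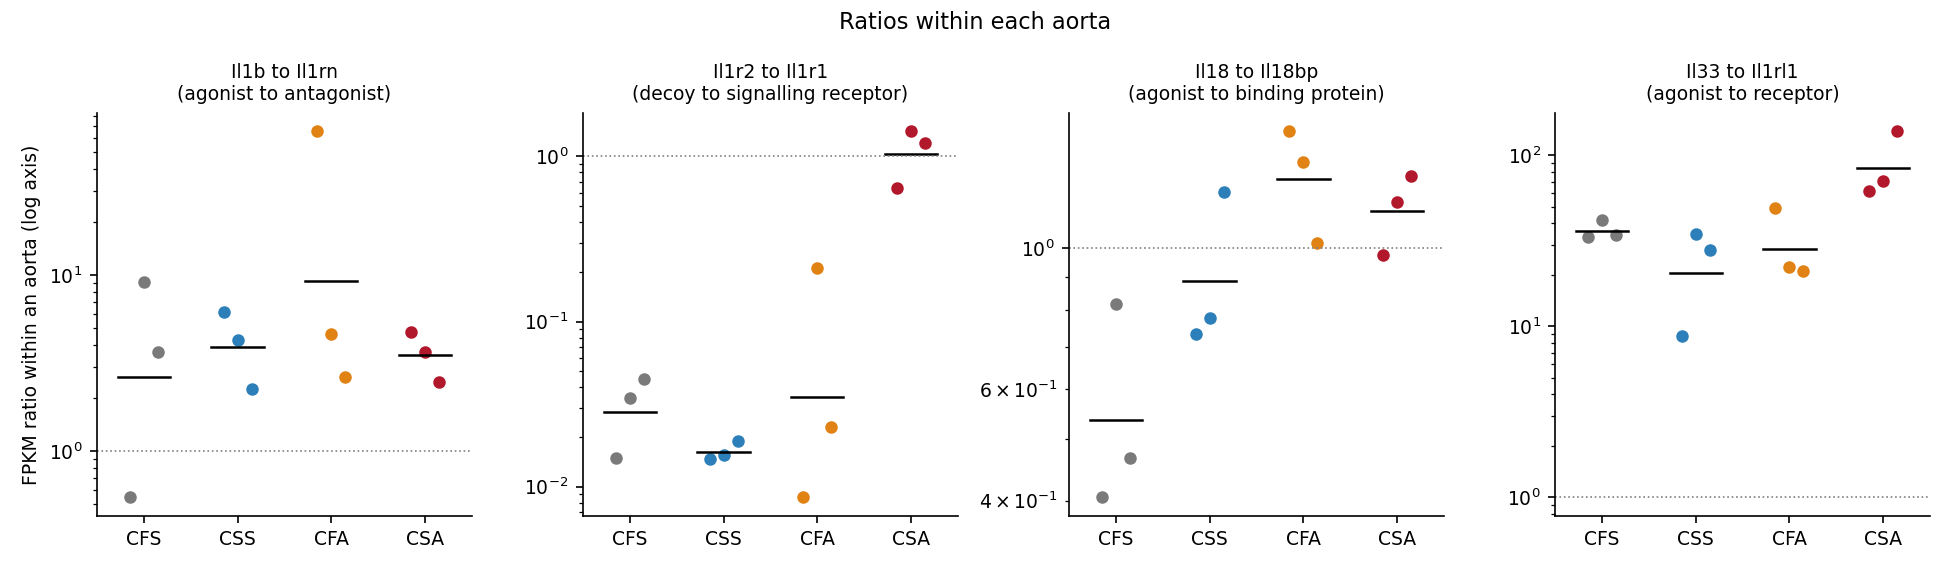
FPKM ratios within each aorta (vertical log axes) for 4 pairs of genes, with points for mice, bars for the geometric mean and a dotted line at 1. The ratio of Il1b to Il1rn overlaps between groups, while that of Il1r2 to Il1r1 reaches 0.646 to 1.42 in CSA and stays at or below 0.211 elsewhere.

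The summed FPKM of the 10 genes was 29.0 to 33.5 in CFS, 23.7 to 32.5 in CSS, 25.8 to 48.1 in CFA and 234 to 429 in CSA. In CFS, Il33 held a median of 48.1% and Il1r1 37.0% of this sum, while Il1b held 1.05% and Il1r2 1.26%. In CSA the medians were 33.4% for Il33, 25.5% for Il1b, 13.4% for Il1r2, 11.2% for Il1r1 and 7.40% for Il1rn.

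Of the 10 genes, 4 sit in a run of 6 receptor genes on chromosome 1 that are transcribed in the same direction. From the start of Il1r2, the others begin at 151 kb (Il1r1), 250.5 kb (Il1rl2), 355.5 kb (Il1rl1), 391.5 kb (Il18r1) and 441.3 kb (Il18rap). In CSA against CFA, 5 of these 6 were called higher, beside 8.95% of tested genes, the exception being Il1rl1, but Il1r2, Il1rl1, Il18r1 and Il18rap passed the filter only through CSA. Il1r1 (1.64) and Il1rl2 (1.52), which passed it outside CSA and were called beside 4.54% of such features, lay close to the fold limit, and Il1r1 lost its call without CSA 03. Map4k4, 173.2 kb before Il1r2, had a log2 fold change of 0.96 (adjusted p = 0.000155, limma) and was not called for size, and Tmem182, at 731.5 kb, fell by 2.17 (adjusted p = 0.0192). Next to Il1a and Il1b, the neighbours Ckap2l (0.91) and Slc20a1 (0.75) were not called, and Sirpa, 293.2 kb above the lower coordinate of Il1a, rose by 2.22 (adjusted p = 3.39e-06).

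**Figure D4:**
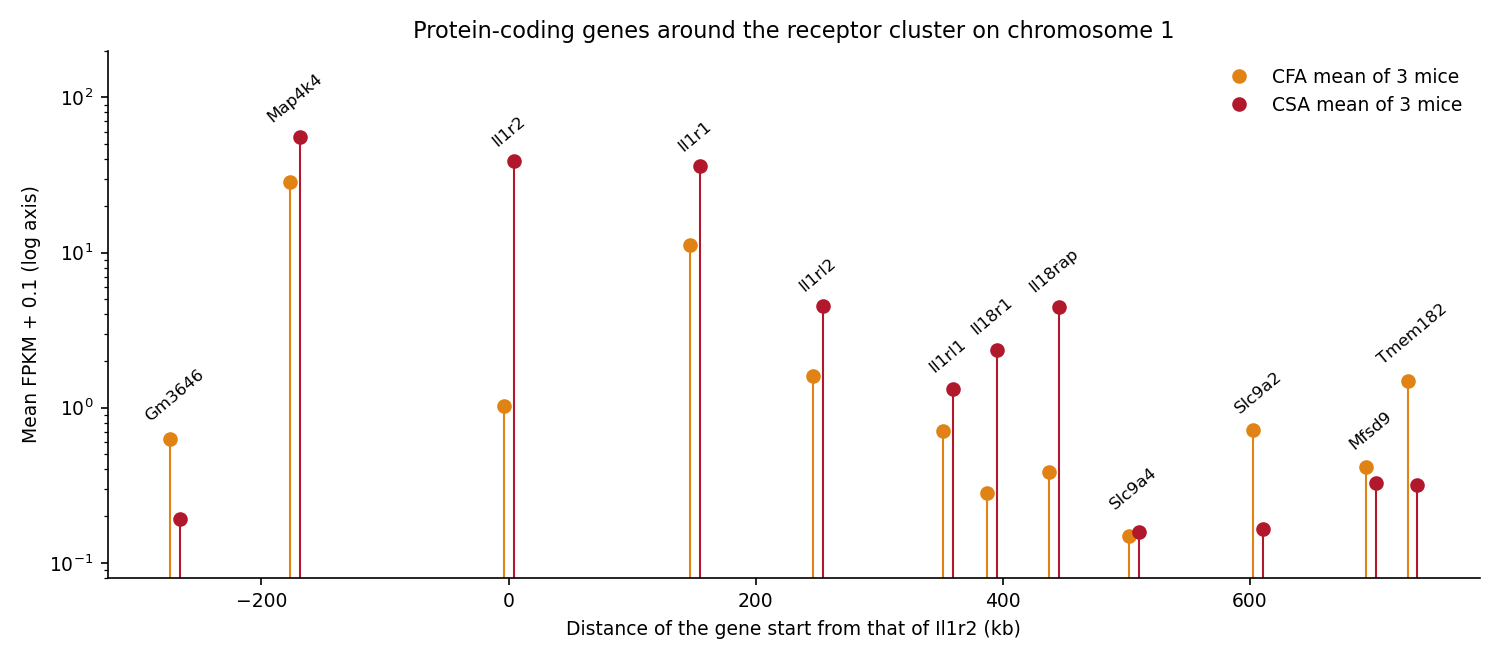
Mean FPKM + 0.1 (vertical log axis) in CFA and CSA, 3 mice each, of protein-coding genes around the receptor cluster on chromosome 1, by the distance of the gene start from that of Il1r2 in kb. The CSA mean is above the CFA mean for the 6 receptor genes, Map4k4 and Slc9a4 (below 0.1 FPKM in both), and below it for Gm3646, Slc9a2, Mfsd9 and Tmem182.

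Among 11 further genes of the family, 5 were tested and 4 were called higher in CSA against CFA, beside 8.95% of tested genes. Il36g and Il18r1 passed the filter only through CSA, and of the other 3, 2 were called, beside 4.54% of features that passed outside CSA. Il36g, an epithelial agonist listed under its older symbol Il1f9, had a mean of 4.58 ± 0.577 FPKM in CSA and 0.407 ± 0.335 in CFA (SD, n = 3 each), and its log2 fold change was 3.43 (adjusted p = 0.00181, limma). Its receptor gene Il1rl2 had a log2 fold change of 1.52 (adjusted p = 0.000667), just over the fold limit. Il18r1, the binding chain of the IL-18 receptor, was at 2.40, 1.91 and 2.45 FPKM in CSA and 0.143, 0.196 and 0.206 in CFA (log2 fold change 3.06, adjusted p = 0.000107). Il18bp was at 7.94, 7.84 and 11.3 in CSA and 1.46, 1.60 and 1.48 in CFA (log2 fold change 2.48, adjusted p = 4.3e-06). Sigirr, an inhibitory receptor, was at 3.75, 3.87 and 0.708 in CSA and 1.72 to 2.39 in CFA (log2 fold change 0.15, adjusted p = 0.864), CSA 03 being the low value. Il36a and Il36b were at 0 in all 12 libraries, Il36rn and Il1f10 above 0 only in CSA 02 (0.0105 and 0.263 FPKM), and Il1rapl1 and Il1rapl2 at or below 0.0489 FPKM throughout.

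Genes that act before and after the receptor were described in the same comparison, with no test between the lists. Of 12 genes for release and processing of the cytokines, 11 were tested and 7 were called higher in CSA against CFA, beside 8.95% of all tested genes. Their median difference was 1.92 on the log2 scale. Of the 6 that passed the filter outside CSA, 3 were called, beside 4.54% of such features, namely Casp4 (1.99), Casp1 (1.92) and Gsdmd (1.5). The 3 largest changes were those of the inflammasome sensor Nlrp3 (4.08, adjusted p = 2.85e-05), neutrophil elastase Elane (3.57, adjusted p = 0.000932) and the DNA sensor Aim2 (3.17, adjusted p = 7.93e-05), each of which passed the filter only through CSA. Of 19 genes for receptor signalling, all were tested and 2 were called higher, a share of 10.5% beside 8.95% of all tested genes and, as all 19 passed the filter outside CSA, 4.54% of such features. These were Rel (1.97, adjusted p = 0.000135), an NF-kB subunit, and the adaptor Myd88 (1.68, adjusted p = 7e-06), with a median of 0.34. The next largest change was that of Irak3, a negative regulator of the pathway (1.48, adjusted p = 0.000516), under the fold limit. Of 22 genes known to respond to IL-1, 20 were tested and 14 were called higher, beside 8.95% of all tested genes, with a median of 2.03. Of the 15 that passed the filter outside CSA, 9 were called higher, beside 4.54% of such features. Saa3 and Cxcl5 are among the 5 that passed it only through CSA. Saa3, an acute-phase protein gene, went from a mean of 1.03 FPKM to 204 (log2 fold change 7.68, adjusted p = 6.17e-06), Cxcl5, a neutrophil chemokine gene, from 0.260 to 38.7 (6.86, adjusted p = 6.13e-07), and Ccl2, a monocyte chemokine gene, from 2.58 to 72.7 (5.54, adjusted p = 0.000313).

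Macrophage and neutrophil markers rose in CSA against CFA, while mast cell markers mostly did not and erythroid markers fell. Sums of T and NK cell markers were also higher, but each tested marker of that list passed the filter only through CSA. The counts of higher calls in these lists stand beside 8.95% of all tested genes and 4.54% of features that passed the filter outside CSA, by which 8 of 9 macrophage, 3 of 3 neutrophil and 0 of 5 mast cell markers were called higher. No T or NK cell marker passed outside CSA, so the calls of that list are not a share of an even selection. Of 10 macrophage markers 9 were called higher (median log2 fold change 2.98), led by Ly6c2 (6.60, past the filter only through CSA), Fcgr1 (5.24) and Ccr2 (4.10), and their summed FPKM was 206 to 250 in CFS, 226 to 273 in CSS, 290 to 593 in CFA and 2063 to 2179 in CSA. Of 10 neutrophil markers 9 were tested and called higher (median 4.79), of which 6 passed the filter only through CSA, led by Ngp (6.52), S100a8 (5.27) and Cxcr2 (5.12). Their sum was 11.2 to 28.02 in CFA and 530 to 581 in CSA, with Ngp at 0 in CFA and CSS and with Ly6g and Camp at 0 in CFS. The untested marker, Ly6g, which defines mouse neutrophils, had a mean of 0.227 FPKM in CSA and 0.163 in CFA. Of 10 T and NK cell markers 7 were tested and called higher (median 3.72), all of them past the filter only through CSA, led by Trac (5.07), Cd4 (3.93) and Cd3d (3.86), with sums of 1.01 to 3.90 in CFA and 31.8 to 53.4 in CSA. Within CFA, mouse 72, which had the highest Il1b, Il1rn and Il1r2, also had the highest macrophage sum (593 against 313 and 290) and neutrophil sum (28.02 against 22.2 and 11.2). It also had the highest T and NK cell sum (3.90 against 1.37 and 1.01), the highest mast cell sum (46.2 against 32.5 and 11.8) the highest smooth muscle sum (8323 against 7576 and 5466), the lowest endothelial sum (219 against 350.4 and 502) and the lowest fibroblast sum (3384 against 3686 and 3568). Mast cell markers, whose cells carry the IL-33 receptor, had 1 call among 6 tested of 8, Hdc (3.72, past the filter only through CSA), beside Kit (-1.12) and Cma1 (0.73), a median of -0.35, and sums of 11.8 to 46.2 in CFA and 25.8 to 41.2 in CSA. The part of these cells in the IL-1 family values was not tested.

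In the other lists, counts of lower calls stand beside 8.27% of all tested genes and higher calls beside 8.95%. All 8 smooth muscle markers fell (median log2 fold change -3.19), led by Synpo2 (-4.28), Myh11 (-4.17) and Cnn1 (-3.79). Of 8 endothelial markers 3 fell, Vwf (-2.36), Tek (-1.89) and Pecam1 (-1.84), and 1 rose (median -0.74), with sums of 219 to 502 in CFA and 137 to 182 in CSA. Of 8 fibroblast markers 1 fell, Clec3b (-3.28), a count too small to set the list apart from that share, while Lum (1.44) and Pi16 (-1.17) were not called (median 0.46, sums of 3384 to 3686 in CFA and 5179 to 6135 in CSA). Of 8 adipocyte markers 2 fell, Lep (-3.41) and Plin1 (-2.88), and Ucp1 (-2.17) did not pass (median -1.78). None of the 4 tested of 8 skeletal muscle markers was called (Ckm -3.18, Acta1 -3.15 and Tnnt3 1.19), none of 5 mesothelial markers passed the filter, and the 3 tested of 5 erythroid markers fell (Hbb-bs -3.07, Hba-a1 -3.01 and Alas2 -2.50). Since FPKM are relative to the whole library, a loss of smooth muscle RNA and a gain of other RNA cannot be told apart in these values.

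**Figure D5:**
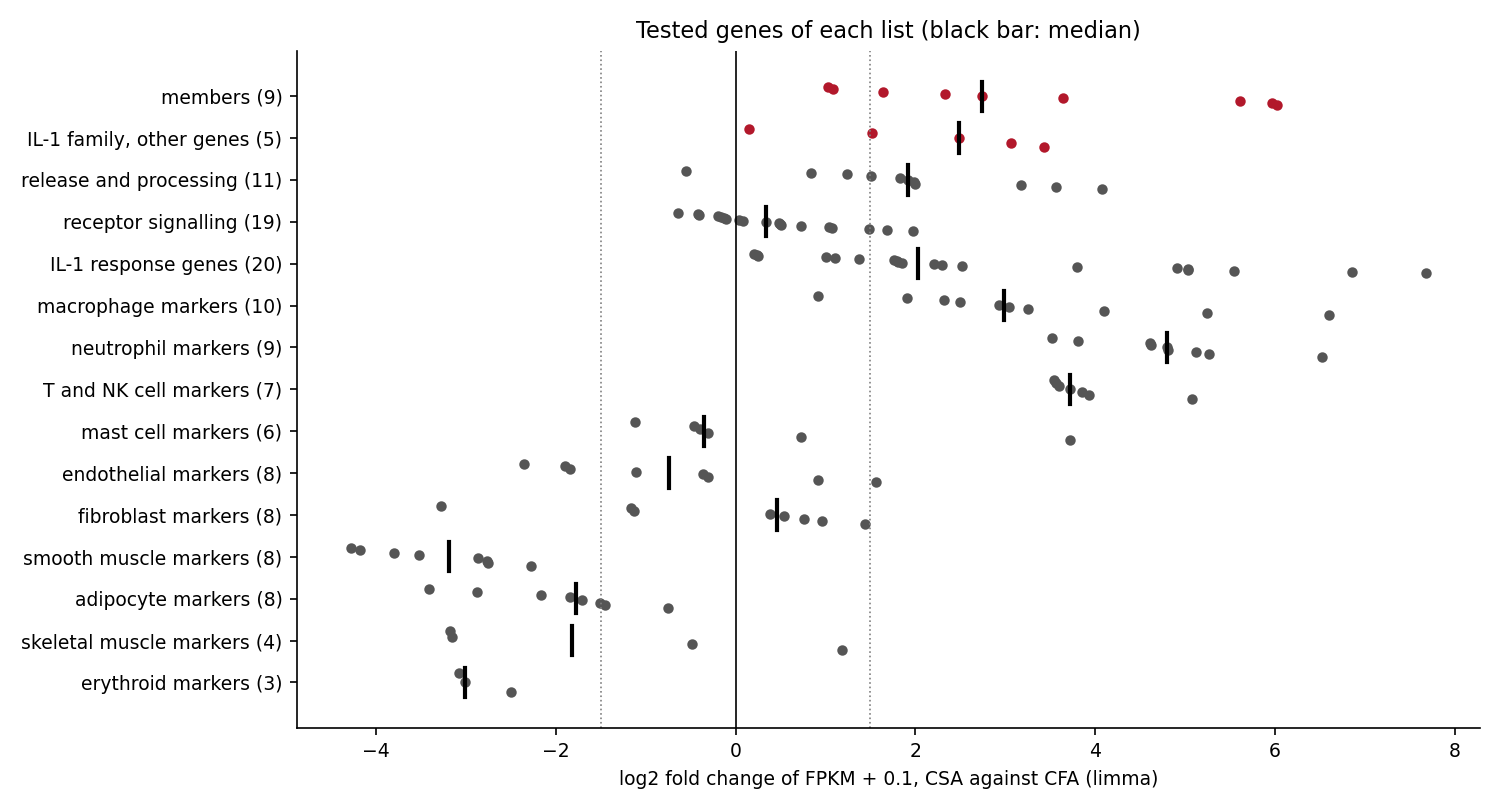
Log2 fold changes of FPKM + 0.1 in CSA against CFA (horizontal axis) for each tested gene of each list, 1 point per gene, with the number tested in parentheses, a black bar at the median and dotted lines at the fold limits of -1.5 and 1.5; the top row, members, holds the 9 tested IL-1 family genes. The top row holds 4 genes that passed the filter only through CSA, and the median is 2.98 for macrophage markers, 0.34 for receptor signalling genes and -3.19 for smooth muscle markers.

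The genes whose values followed these most closely over the 12 libraries were found among 13191 genes outside all lists, by Pearson's r of log2(FPKM + 0.1), as a description in which the split between CSA and the other 9 libraries carries most of the spread. For Il1b they were Cd300lf (r = 0.992), Bin2 (0.99) and Mefv (0.99). For Il1rn they were Clec5a (0.994), BE692007 (0.994) and Slfn8 (0.99), and for Il1r2 BE692007 (0.991), Gm5431 (0.989) and Gpr171 (0.986). Il1r1 was followed by Traj1 (0.989), Ddx58 (0.987) and Il13ra1 (0.983), and Il33 by Itga2, Plcl2 and Cysltr1 (each 0.986). Among the 9 themselves, r was 0.988 for Il1rn with Il1r2, 0.956 for Il1b with Il1rn, 0.897 for Il1b with Il1r1 and 0.707 for Il1rl1 with Il1rap, the lowest of the pairs.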

How the data were processed

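RNA-Seq of abdominal aortas from 12 male mice was analysed, in 4 groups of 3 taken from the sample labels. The authors deposited FPKM, 1 column per mouse, and 0 columns were left unused. The submitters' processing notes name HISAT2 2.0.5, StringTie 1.3.3b, featureCounts 1.5.0-p3 and mm10 without their roles, and the annotation is not given in the sources used here. Symbols, positions and exon lengths came from GENCODE M21 (GRCm38, the same build), which named 54409 of 54532 Ensembl identifiers (560 features have none). With these lengths, 97.8% to 98.4% of the values under 100 fragments were within 0.02 of a whole number of fragments, and the sums gave the depth of 14555508 to 23102751 per library. The deposited FPKM already carried a scaling between libraries, with a median-of-ratios factor of 1.014 in each. Up to 3 fragments are compatible with a value of 0, and floors and intervals cover counting error only.

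Values were fitted as log2(FPKM + 0.1), which understates changes of low genes, with limma 3.58.1 in R 4.3.3 (1 coefficient per group, eBayes with trend and robust settings, Benjamini-Hochberg adjustment), because the deposited unit is FPKM. The study used DEG-Seq, and its limits on adjusted p and fold were kept. Python 3.11.15 was used with numpy 2.4.6, pandas 2.3.3 and scipy 1.17.1. The fit was tested on simulated data for CSA against CFA, where 14676 genes held 200 changed 8-fold, of which 191 were called, beside 5 unchanged genes. The simulated log2 values were normally distributed, and the changes were placed only in genes above a low mean level. Genes near the detection limit outside CSA, such as Il1rn, were thus not covered. P-values measure the spread between mice. Upstream sequences came from RefSeq (GRCm38.p6), which held windows for all 10 genes. All 10 genes, the 11 further family genes, the 3 largest changes of each list, and the 3 closest genes by correlation (mean of at least 1 FPKM) for Il1b, Il1rn, Il1r2, Il1r1 and Il33 are named by rule, and the genomic neighbours named were chosen after their values were seen. The 10 genes and the lists, 152 genes in 15 lists beside the 10, were chosen with earlier results of these data known.

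Alternatives were pseudocounts of 1 and 0.01, no filter, a mean of at least 5 FPKM, 2 other scalings, eBayes without trend and robust settings, only the groups compared, no fold limit, limma's treat and leaving out each mouse. Limma-voom on recovered fragments and a filter on the 9 libraries outside CSA were added after the data were seen.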

Additional observations from a re-analysis of the deposited data

Results flagged for a closer look

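The genotype effect differed between Ang II and saline, by limma's interaction term, for 7 of the 9 tested IL-1 family genes, beside 7.89% of all tested genes called higher, and for 5 without CSA 03. Il1rn, Il1r2 and Il18rap passed the filter only through CSA, and of the 5 genes that passed it outside CSA, 4 were called higher, beside 4.39%. The effect under Ang II minus that under saline was 6.56 on the log2 scale for Il1r2 (SE 1.10, adjusted p = 0.00152), 6.05 for Il1rn (SE 0.98, adjusted p = 0.00122), 5.42 for Il1b (SE 1.14, adjusted p = 0.00529), 3.38 for Il33 (SE 0.52, adjusted p = 0.000958), 2.96 for Il18rap (SE 0.65, adjusted p = 0.00642), 1.72 for Il18 (SE 0.42, adjusted p = 0.0121) and 1.55 for Il1r1 (SE 0.27, adjusted p = 0.00188). Sums of macrophage, neutrophil, T and NK cell and fibroblast markers were also highest in CSA and those of smooth muscle markers lowest (793 to 938 FPKM, against 5466 or more elsewhere), and their part in these differences was not tested. Of the 8 fibroblast markers, 0 were called higher in CSA against CFA and 1, Clec3b (-3.28), was called lower.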

How the results depend on the processing

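Of 820 alternative values for single genes, 770 kept their direction and their side of the thresholds, 16 lost a call, 22 gained 1 and 12 changed sign, all of the last in the comparisons without calls. Not all of the 820 were free to move. Median-of-ratios scaling divided every library by the same factor of 1.014, so it could hardly change a value. Dropping the fold limit and limma's treat kept the main fold changes, so these settings could not change a direction. Testing against a log2 fold change of 1.5 (limma's treat) left 4 calls in CSA against CFA (7 before) and 2 in the interaction (7 before), and it is stricter by construction. Of all 14676 tested genes it called 574 and 182 higher. The 4 were Il1b, Il1rn, Il1r2 and Il18rap, of which all but Il1b passed the filter only through CSA. The 2 were Il1rn and Il1r2. Of the 5 genes that passed outside CSA, only Il1b thus kept a call, and only in CSA against CFA. Filtering on the 9 libraries outside CSA, added after the data were seen, tested 5 genes and left 4 calls in CSA against CFA, 3 in CSA against CSS (6 before) and 4 in the interaction, since Il1rn, Il1r2 and Il18rap were no longer tested. Leaving out each mouse in turn gave 6 to 7 calls in CSA against CFA, 6 to 7 in CSA against CSS, 5 to 8 in the interaction and 0 in the other comparisons. Over all 14676 tested genes, 1210 to 1405, 1548 to 1644 and 1006 to 1238 were then called higher in the first 3. Limma-voom gave 7, 9, 8 and 0, beside 1453, 1789 and 1188 of 14407 genes called higher in the first 3. These counts include genes that passed the filter only through CSA. In CSS against CFS, Il1b was -0.02 with a pseudocount of 1, and leaving out a mouse gave -0.46 to 0.92 for Il1b, -0.22 to 0.02 for Il1rn, -0.21 to 0.44 for Il1rl1 and -0.02 to 0.14 for Il1r1. In CFA against CFS it gave -0.76 to 1.08 for Il1r2, -0.25 to 0.29 for Il33, -0.29 to 1.44 for Il1rn and -0.07 to 0.63 for Il1rl1. In CSA against CFA it gave 4.88 to 6.52 for Il1b, 5.18 to 6.91 for Il1rn, 5.27 to 7.11 for Il1r2 and 1.41 to 1.85 for Il1r1. In that comparison a pseudocount of 1 gave 4.04 for Il1rn, 4.47 for Il1r2 and 2.05 for Il18rap, and limma-voom gave 7.22, 6.62 and 4.27, all still called. In the interaction, Il18rap lost its call with a pseudocount of 0.01 (2.70, adjusted p = 0.072), Il18 without CFS 69 (1.46) or CSA 03 (1.46), and Il1r1 with a pseudocount of 1 (1.48) and without CSS 54 (1.5), CSS 56 (1.5) or CSA 03 (1.32), while Il1rap gained it without CFS 70 (1.63), CSS 55 (1.60), CFA 72 (1.51), CSA 01 (1.57) or CSA 02 (1.54), with a pseudocount of 0.01 (1.53) and in limma-voom (1.70). The cause was not tested. No paired analysis was possible because the groups share no mouse numbers. Depth limits Il1a, Il1rn, Il1b, Il18rap and Il1r2 outside CSA, where a library holds as few as 0, 2, 3, 3 and 4 fragments.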
